A study of Mus musculus with 8 samples.

Results

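Transcripts of 10 Wnt ligands were examined in mouse mammary tumors driven by a Wnt1 transgene: Wnt1 itself, Wnt2, Wnt4, Wnt5a, Wnt5b, Wnt6, Wnt7b, Wnt10a, Wnt10b and Wnt11. The ligands were chosen by name, as rows of the deposited expression table whose annotation gives that gene and no other. All 10 were found, each with 1 row, among 14860 named genes and 23332 rows in all. Wnt proteins are secreted, lipid-modified signals. A Wnt that engages a Frizzled receptor together with the co-receptor Lrp5 or Lrp6 stabilizes β-catenin, which enters the nucleus and acts with TCF/LEF factors, whereas Wnt5a, Wnt5b and Wnt11 are best known for signaling without β-catenin, in part through the receptor Ror2. Wnt1 is silent in the normal mammary gland and was found as a gene that mouse mammary tumor virus (MMTV) activates by inserting next to it.

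The MMTV-Wnt/ILK tumors (n = 4) arose in double-transgenic females that carried the MMTV-Wnt1 transgene and, in addition, a human integrin-linked kinase (ILK) transgene, and the MMTV-Wnt1 tumors (n = 4) arose in females with the MMTV-Wnt1 transgene only. In both groups the transgenes were under the MMTV promoter, which is active mainly in mammary epithelium, the strain was FVB by backcrossing, the females were nulliparous and the tumors lay in the mammary fat pad. No age of the mice is given for these tumors. RNA of snap-frozen whole tumor tissue was read on exon arrays of Affymetrix (Mouse Exon 1.0 ST), with 1 array for each tumor. No tumor without the Wnt1 transgene was on an array, so the levels have no reference from untransformed gland. The labels number the tumors 1 to 4 within each group and do not say that each came from a different mouse, so the p-values measure the spread between these tumors.

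The values are log2 expression values, so a difference of 1 is a 2-fold change. Array medians ran from 6.89 to 7.23, pairs of arrays correlated at 0.920 to 0.974, and 0 pairs held identical values. The mouse Ilk row was at 10.77 ± 0.15 in MMTV-Wnt/ILK tumors and 10.63 ± 0.16 in MMTV-Wnt1 tumors (SD, n = 4 each), a difference of 0.14 with an SE of 0.15, and cross-reading of the human ILK transgene by these mouse probes was not tested, so this row does not check the labels. Among mammary epithelial markers, Krt5 and Kit, picked after their values were seen, were high in both groups. Krt5, a basal keratin, averaged 10.58 in MMTV-Wnt/ILK tumors and 10.65 in MMTV-Wnt1 tumors. Kit, a receptor of luminal progenitors, averaged 12.04 in MMTV-Wnt/ILK tumors and 12.06 in MMTV-Wnt1 tumors. In the same order, the basal and myoepithelial markers examined ran from Oxtr (7.89 and 7.18) to Acta2 (12.16 and 12.29). The luminal progenitor and alveolar markers ran from Itgb3 (7.74 and 7.47) to Kit.

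To ask whether the ILK transgene went with another level of any Wnt ligand, each row of the table was tested between the groups with limma, which fits a linear model and steadies the variance of a row with that of the others. The Benjamini-Hochberg adjustment ran over all rows. None of the 10 ligands passed an adjusted p of 0.05. Neither did any other row, so the background is 0%, and the smallest adjusted p of the table was 0.905. The ligands that differed most were Wnt5b and Wnt5a, at about 2.0-fold and 1.88-fold higher means in MMTV-Wnt/ILK tumors. They were also the 2 of 10 with an unadjusted p under 0.05, against 5.11% of all rows in either direction and 2.91% in the higher direction. The Wnt1 row, whose probes were not checked against the transgene, differed by 0.29 on the log2 scale, less than the SD of the MMTV-Wnt1 tumors. In 7 of the ligands the mean was higher in MMTV-Wnt/ILK tumors and in 3 it was lower, with a median difference of 0.15 over the 10 and -0.03 over all rows, of which 45.3% had a higher mean. No ligand separated the groups completely, whereas 2.90% of all rows did. None met the thresholds of the study, which ask for more than a 2.5-fold change at an unadjusted p below 0.05 and which 0.373% of rows met. The study put them to exon-level and gene-level probe sets, whereas here they were applied to gene-level rows with limma p-values.

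Wnt1, the oncogenic ligand carried by every tumor as a transgene, was at 10.91, 10.48, 10.86 and 10.99 in MMTV-Wnt/ILK tumors 1 to 4 and at 10.84, 10.01, 11.10 and 10.14 in MMTV-Wnt1 tumors 1 to 4. The groups overlapped: the highest and the lowest tumor were both MMTV-Wnt1 tumors, and tumors 2 and 4 of that group lay below all MMTV-Wnt/ILK tumors. The mean was 10.81 ± 0.23 in MMTV-Wnt/ILK tumors and 10.52 ± 0.53 in MMTV-Wnt1 tumors (SD, n = 4 each). The difference of 0.29 had an SE of 0.27 and a 95% interval of -0.32 to 0.89 (limma adjusted p = 0.910, exact 2-sided permutation p = 0.34). With 4 tumors against 4 there are 70 assignments, and the smallest p that the exact test can give is 0.029. Within each array the Wnt1 row stood above 91.6% to 98.0% of all rows. The probe sequences were not analysed here, so it is not known whether this row reads the transgene, the endogenous gene or both. Without MMTV-Wnt1 tumor 2 the difference was 0.12, without MMTV-Wnt1 tumor 4 it was 0.16 and without MMTV-Wnt1 tumor 3 it was 0.48.

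The sequence upstream of the endogenous Wnt1 gene is shown because Wnt1 is the ligand on which the tumor model rests, and the sources used here do not give the start of the transgene's transcripts. It covers the 250 bases before the RefSeq start of Wnt1 at chr15:98789607-98789856 (GRCm38.p6, plus strand), with 71.6% G or C and 23 CpG, against medians of 52.4% and 6 over 32817 such windows. It holds none of the motifs searched on both strands, which were ATCAAAG (TCF/LEF), AGGTCA (a nuclear receptor half-site) and TATAAA, a box found near some promoter starts, so it is printed in lower case throughout.
Wnt1: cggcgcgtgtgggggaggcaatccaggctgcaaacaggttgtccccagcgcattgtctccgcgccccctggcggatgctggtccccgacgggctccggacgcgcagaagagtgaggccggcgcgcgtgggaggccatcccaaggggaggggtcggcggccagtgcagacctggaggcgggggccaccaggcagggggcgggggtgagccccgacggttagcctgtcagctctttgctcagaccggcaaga

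**Figure D1:**
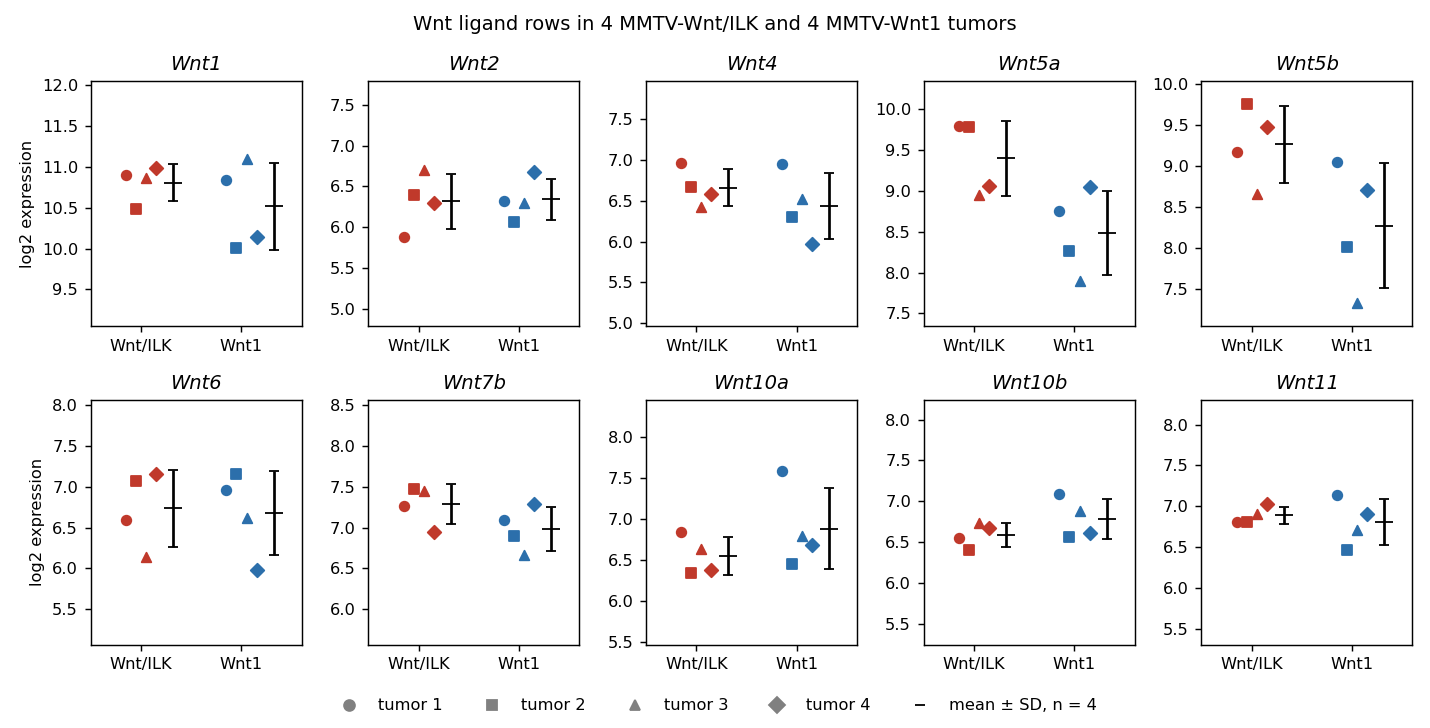
Log2 expression of each of the 10 Wnt ligands (y axis, the same span in every panel) in MMTV-Wnt/ILK tumors (red, left) and MMTV-Wnt1 tumors (blue, right). Each symbol is 1 tumor, its shape gives the tumor number, and the bars are the mean ± SD (n = 4). Wnt5a and Wnt5b have 3 of 4 MMTV-Wnt/ILK tumors above all MMTV-Wnt1 tumors, and no ligand separates the groups.

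Set beside the other ligands, the Wnt1 row was far up the scale in every tumor. Rows of different genes rest on different probes, so the following gives places on the array and is not a ranking by abundance. Wnt1 exceeded the mean log2 value of the other 9 ligands by 3.59, 3.07, 3.68 and 3.70 in MMTV-Wnt/ILK tumors 1 to 4 and by 3.40, 3.10, 4.24 and 3.04 in MMTV-Wnt1 tumors 1 to 4. The excess averaged 3.51 ± 0.30 in MMTV-Wnt/ILK tumors and 3.44 ± 0.56 in MMTV-Wnt1 tumors, overlapping groups that differed by 0.06. Wnt5a and Wnt5b were the other ligands in the upper part of the arrays, above 63.7% to 91.9% and 55.0% to 89.8% of rows over the 8 tumors. The remaining 7 lay between the places of 30.9% and 62.8%.

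Wnt5a, which acts mostly without β-catenin and in the mouse mammary gland restrains ductal branching, was at 9.80, 9.78, 8.95 and 9.06 in MMTV-Wnt/ILK tumors 1 to 4 and at 8.76, 8.26, 7.89 and 9.05 in MMTV-Wnt1 tumors 1 to 4. MMTV-Wnt/ILK tumors 1, 2 and 4 were above all MMTV-Wnt1 tumors, tumor 4 only just, and the groups overlapped through MMTV-Wnt/ILK tumor 3. The mean was 9.40 ± 0.46 in MMTV-Wnt/ILK tumors and 8.49 ± 0.51 in MMTV-Wnt1 tumors (SD, n = 4 each). The difference was 0.91 with an SE of 0.31 and a 95% interval of 0.21 to 1.61 (limma unadjusted p = 0.0167, adjusted p = 0.905, exact 2-sided permutation p = 0.057). It did not pass the adjusted threshold.

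Wnt5b, the closest relative of Wnt5a in the family, was at 9.17, 9.76, 8.66 and 9.48 in MMTV-Wnt/ILK tumors 1 to 4 and at 9.04, 8.01, 7.32 and 8.70 in MMTV-Wnt1 tumors 1 to 4. Again MMTV-Wnt/ILK tumors 1, 2 and 4 exceeded every MMTV-Wnt1 tumor and tumor 3 did not. The span over the 8 tumors was 2.44, and the spread within groups was wider than in 85.4% of rows. The mean was 9.27 ± 0.47 in MMTV-Wnt/ILK tumors and 8.27 ± 0.76 in MMTV-Wnt1 tumors (SD, n = 4 each). The difference of 1.00 had an SE of 0.39 and a 95% interval of 0.11 to 1.88 (limma unadjusted p = 0.0313, adjusted p = 0.905, exact 2-sided permutation p = 0.086).

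MMTV-Wnt1 tumor 3, the lowest in both ligands, was also the lowest in fibroblast markers, with a summed linear value of 2900 over 10 markers. The other MMTV-Wnt1 tumors were at 11850 to 15105, and MMTV-Wnt/ILK tumors 1 to 4 were at 9935, 12028, 15138 and 19278. Among the MMTV-Wnt/ILK tumors, tumor 1 had the lowest sum and the highest Wnt5a (9.80), and tumor 2 the highest Wnt5b. Without MMTV-Wnt1 tumor 3 the difference was 0.71 for Wnt5a (limma unadjusted p = 0.045) and 0.68 for Wnt5b (limma unadjusted p = 0.074). Without MMTV-Wnt1 tumor 2, or without MMTV-Wnt/ILK tumor 1, 2 or 4, Wnt5b also missed a limma unadjusted p of 0.05. Its differences were then 0.83 to 1.03. Wnt5a stayed under this limma threshold without any one tumor, with exact permutation p of 0.029 to 0.14. In whole tumors, fewer cells of a type and less RNA per cell cannot be told apart, and the part of fibroblasts in these differences was not tested.

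RefSeq lists 3 starts of Wnt5b, and the 250 bases before each are shown because Wnt5b had the largest difference among the ligands. The windows lie on the minus strand of GRCm38.p6 at chr6:119544348-119544597 (start a), chr6:119467212-119467461 (start b) and chr6:119449387-119449636 (start c). They differ in make-up, with 75.2% G or C and 35 CpG at start a, 53.2% and 4 at start b, and 55.6% and 7 at start c. The capitals mark a match to ATCAAAG on the opposite strand, 71 bases before start c.
Wnt5b start a: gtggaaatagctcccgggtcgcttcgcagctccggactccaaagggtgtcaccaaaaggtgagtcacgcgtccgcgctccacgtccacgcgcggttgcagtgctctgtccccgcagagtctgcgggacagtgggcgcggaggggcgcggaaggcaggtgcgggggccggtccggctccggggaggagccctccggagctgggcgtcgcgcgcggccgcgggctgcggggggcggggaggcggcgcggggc
Wnt5b start b: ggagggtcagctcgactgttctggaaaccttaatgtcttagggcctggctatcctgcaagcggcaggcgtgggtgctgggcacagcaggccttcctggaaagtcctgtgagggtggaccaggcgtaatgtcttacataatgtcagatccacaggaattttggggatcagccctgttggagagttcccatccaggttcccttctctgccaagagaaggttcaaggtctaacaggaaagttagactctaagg
Wnt5b start c: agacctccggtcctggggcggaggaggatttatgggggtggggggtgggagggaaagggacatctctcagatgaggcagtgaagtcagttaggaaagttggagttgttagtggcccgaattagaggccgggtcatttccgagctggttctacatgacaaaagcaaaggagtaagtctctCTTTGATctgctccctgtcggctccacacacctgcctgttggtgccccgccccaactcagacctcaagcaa
The table of upstream sequences held 10 windows for 7 of the ligands, and Wnt5a, Wnt7b and Wnt10a had no entry. Of these windows, 2 held ATCAAAG: the one of Wnt5b start c and 1 of 2 of Wnt11 (chr7:98834862-98835111, plus strand), where it lay 51 bases before the start, upstream of a TATAAA at 29 bases. Over all 32817 windows, 3.21% held ATCAAAG, 12.4% TATAAA and 14.03% AGGTCA, which was in none of the ligands' windows. A match is a string of letters and says nothing of binding in these tumors.

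Among the ligands that signal mainly through β-catenin, Wnt7b, expressed in luminal cells of mouse mammary ducts, had the next largest positive difference. It was at 7.27, 7.47, 7.45 and 6.95 in MMTV-Wnt/ILK tumors 1 to 4 and at 7.09, 6.89, 6.66 and 7.29 in MMTV-Wnt1 tumors 1 to 4. The groups overlapped, with 2 of 4 MMTV-Wnt/ILK tumors above all MMTV-Wnt1 tumors, and the difference was 0.30 (SE 0.19, 95% interval -0.13 to 0.73, limma adjusted p = 0.905, exact permutation p = 0.14). Wnt4, which acts downstream of progesterone in ductal side branching, was at 6.96, 6.67, 6.42 and 6.59 in MMTV-Wnt/ILK tumors 1 to 4 and at 6.95, 6.31, 6.53 and 5.98 in MMTV-Wnt1 tumors 1 to 4. The highest tumors of the groups were level, and the difference was 0.22 (SE 0.23, 95% interval -0.29 to 0.73, limma adjusted p = 0.915, exact permutation p = 0.34). It was 0.07 without MMTV-Wnt1 tumor 4 and 0.39 without MMTV-Wnt1 tumor 1.

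Wnt10a and Wnt10b form a closely related pair, and both had lower means in MMTV-Wnt/ILK tumors. Wnt10b, an early marker of the embryonic mammary line and itself a target of MMTV insertion, was at 6.54, 6.40, 6.73 and 6.68 in MMTV-Wnt/ILK tumors 1 to 4 and at 7.09, 6.56, 6.87 and 6.61 in MMTV-Wnt1 tumors 1 to 4. Of the MMTV-Wnt/ILK tumors, 2 of 4 were below all MMTV-Wnt1 tumors, with a difference of -0.19 (SE 0.17, 95% interval -0.57 to 0.18, limma adjusted p = 0.910, exact permutation p = 0.23). Wnt10a, known for its part in tooth and skin appendage development, was at 6.84, 6.34, 6.63 and 6.37 in MMTV-Wnt/ILK tumors 1 to 4 and at 7.59, 6.46, 6.80 and 6.68 in MMTV-Wnt1 tumors 1 to 4. MMTV-Wnt1 tumor 1 was the highest for both genes, and Wnt10a differed by -0.34 (SE 0.26, 95% interval -0.92 to 0.24, limma adjusted p = 0.910, exact permutation p = 0.26). These signs turned when values were taken relative to Actb (0.21 for Wnt10a and 0.36 for Wnt10b), as did that of Wnt2. Actb itself averaged 12.63 ± 0.48 in MMTV-Wnt/ILK tumors and 13.18 ± 0.02 in MMTV-Wnt1 tumors (limma unadjusted p = 0.0423), a difference of -0.55 that this scaling takes off every row. Without MMTV-Wnt1 tumor 1 the difference was -0.10 for Wnt10a and -0.09 for Wnt10b. In the reference annotation Wnt10b is the neighbour of Wnt1 and Wnt6 the neighbour of Wnt10a.

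The remaining ligands had differences under 0.10 in size. Wnt6, an epithelial Wnt of the early mammary bud, spanned 6.14 to 7.15 in MMTV-Wnt/ILK tumors and 5.98 to 7.16 in MMTV-Wnt1 tumors, with a difference of 0.06 (SE 0.31, 95% interval -0.65 to 0.77). Wnt11, a regulator of branching in the kidney, spanned 6.80 to 7.03 in MMTV-Wnt/ILK tumors and 6.47 to 7.14 in MMTV-Wnt1 tumors, with a difference of 0.08 (SE 0.17, 95% interval -0.31 to 0.47). Wnt2, expressed in the stroma of the mouse mammary gland, spanned 5.89 to 6.69 in MMTV-Wnt/ILK tumors and 6.07 to 6.68 in MMTV-Wnt1 tumors, with a difference of -0.02 (SE 0.21, 95% interval -0.50 to 0.45). The ranges of the groups overlapped for all 3 genes, and their intervals leave room for differences of either sign.

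**Figure D2:**
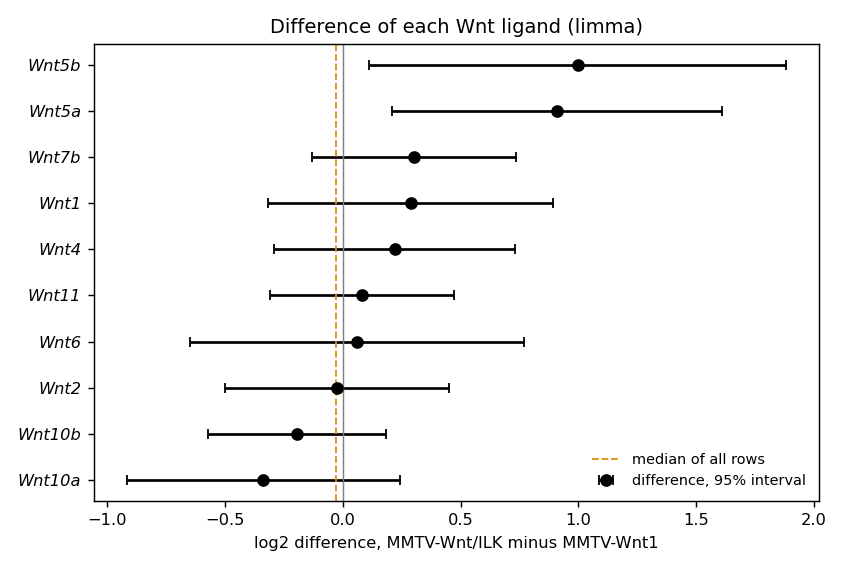
Log2 difference of each ligand, MMTV-Wnt/ILK minus MMTV-Wnt1 (x axis), with its 95% interval from limma, ordered by size (y axis). The dashed line is the median of all 23332 rows (-0.03). The intervals of Wnt5b (0.11 to 1.88) and Wnt5a (0.21 to 1.61) lie above 0 before adjustment over all rows, and the other 8 include 0.

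Whether the other ligands varied with the Wnt1 level from tumor to tumor was asked with a limma model that held the group and the Wnt1 value of each tumor. None of the 9 slopes passed an adjusted or, with the values as deposited and all 8 tumors, an unadjusted p of 0.05. The background was 0% of 23331 rows at the adjusted threshold and 16.2% at the unadjusted one, with 957 positive and 2827 negative slopes. The slope was positive for 4 ligands and negative for 5, from 0.54 (SE 0.32) for Wnt10a to -0.53 (SE 0.42) for Wnt5a, in log2 units per log2 unit of Wnt1. Wnt10b came nearest to the threshold, with 0.41 (SE 0.19, limma unadjusted p = 0.062, adjusted p = 0.330). The scaling of the arrays changed this: with median-centring the slopes of Wnt4 (0.62), Wnt10a (0.72) and Wnt10b (0.56) passed the unadjusted threshold, where 22.7% of rows did. The same 3 passed it after repeated quantile normalization (20.4% of rows), and Wnt4, Wnt10a, Wnt10b and Wnt11 relative to Actb (25.7% of rows). Median-centring and scaling to Actb take the same number off the ligand and off Wnt1 in each array. The part of this shared offset in the slopes was not tested. Without MMTV-Wnt1 tumor 3 the slope was 1.10 for Wnt10a and 0.61 for Wnt10b, both past the unadjusted threshold, where 27.8% of rows were, and without MMTV-Wnt1 tumor 2 that of Wnt5a was -1.05, past it as were 10.3% of rows. The median slope was -0.0020 over the 9 ligands and -0.13 over all rows.

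The Wnt1 value ran against the median of its own array. The array medians were 7.003, 7.23, 7.07 and 7.08 in MMTV-Wnt/ILK tumors 1 to 4 and 6.89, 7.23, 7.02 and 7.17 in MMTV-Wnt1 tumors 1 to 4, and tumor 2 of each group had both the highest median and the lowest Wnt1 of its group. Over the 8 tumors Pearson's r was -0.739 (exact permutation p = 0.0402, adjusted p = 0.0402) and Spearman's rho was -0.619 (exact permutation p = 0.115, adjusted p = 0.115). Without the 2 tumors farthest from the middle of the medians, MMTV-Wnt1 tumors 1 and 2, r was -0.804, and after removal of the group means it was -0.841. With the array median in the model, the Wnt1 difference was 0.35 (limma unadjusted p = 0.082), and 8.13% of rows had a slope on Wnt1 at an unadjusted p under 0.05.

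Wnt5a and Wnt5b varied together. Over the 8 tumors r was 0.881 (exact permutation p = 0.00521, adjusted p = 0.0104) and rho was 0.857 (exact permutation p = 0.0107, adjusted p = 0.0214). Without MMTV-Wnt1 tumor 3 and MMTV-Wnt/ILK tumor 2, the farthest on Wnt5b, r was 0.683, and after removal of the group means it was 0.771. These were the 2 relations computed and adjusted together, and both were chosen after the values were seen, so the p-values are not independent evidence.

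**Figure D3:**
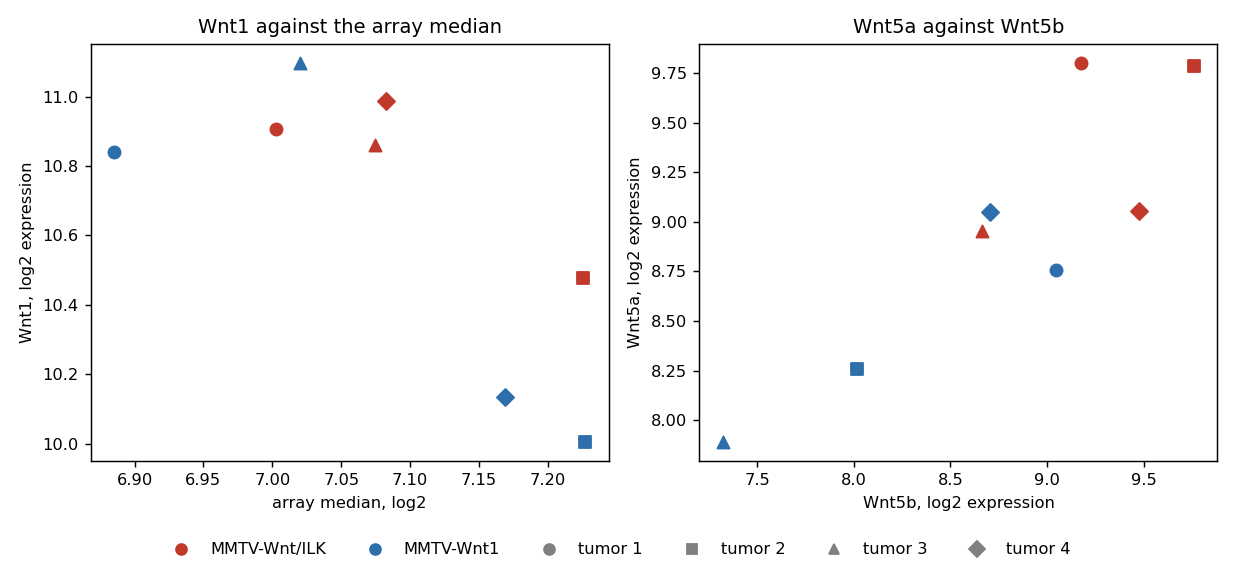
Left, log2 expression of Wnt1 (y axis) against the median log2 value of the array (x axis). Right, log2 expression of Wnt5a (y axis) against Wnt5b (x axis). Each symbol is 1 tumor, red for MMTV-Wnt/ILK and blue for MMTV-Wnt1, with its shape giving the tumor number. Tumors with a higher array median have a lower Wnt1 value (r = -0.739), and Wnt5a and Wnt5b vary together (r = 0.881).

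The genes that followed Wnt1 most closely were sought among 11877 named genes above the dimmest 25% of rows, by Pearson's r over the 8 tumors after removal of the group means, as a description. For Wnt1 they were Foxb1 (r = 0.980), 1700037C18Rik (r = 0.979) and Mlc1 (r = 0.976). These 3 rows were dim, with group means of 5.51 to 6.55, under the lowest array median of 6.89. The part of the array median, against which Wnt1 ran, in these correlations was not tested. For Wnt5a the genes were Itga2 (r = 0.963), Mtmr7 (r = 0.943) and Fam110b (r = 0.924). Itga2, the integrin α2 subunit, is a surface marker of luminal progenitors and averaged 8.87 in MMTV-Wnt/ILK tumors and 8.25 in MMTV-Wnt1 tumors, a difference of 0.62 (limma unadjusted p = 0.044, adjusted p = 0.905).

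In the rest of the pathway no gene passed an adjusted p of 0.05. Of the other 9 Wnt ligands, all measured, 8 averaged lower and 1 higher in MMTV-Wnt/ILK tumors, with a median difference of -0.15 beside -0.03 for all rows. These rows were dim, and 2 of the 9 lay in the lowest 25% of the arrays. Wnt3, a ligand of early development, and Wnt8a had all 4 MMTV-Wnt/ILK tumors below all MMTV-Wnt1 tumors. That is 2 of 9 genes, against 2.90% of all rows and 0 of the 10 ligands described first. Over all the pathway lists the groups did not overlap in 3 of 60 genes, or 5.0%, the other gene being Rspo4. Wnt3 averaged 5.92 in MMTV-Wnt/ILK tumors and 6.12 in MMTV-Wnt1 tumors, and Wnt8a averaged 5.24 in MMTV-Wnt/ILK tumors and 5.55 in MMTV-Wnt1 tumors (adjusted p = 0.905 for both).

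Genes that make Wnt ligands ready for release or inactivate them were represented by 8 of 11 listed genes, and all 8 had lower means in MMTV-Wnt/ILK tumors by a median of 0.18, without a call at the unadjusted threshold either. Porcn, which attaches the lipid to Wnt proteins, averaged 8.55 in MMTV-Wnt/ILK tumors and 8.61 in MMTV-Wnt1 tumors. Wls, the carrier that brings Wnt proteins to the cell surface, averaged 9.42 ± 0.34 in MMTV-Wnt/ILK tumors and 9.65 ± 0.47 in MMTV-Wnt1 tumors. Notum, which removes the lipid, averaged 6.67 ± 0.31 in MMTV-Wnt/ILK tumors and 7.26 ± 1.16 in MMTV-Wnt1 tumors. Its wide spread came from MMTV-Wnt1 tumor 4, at 8.99, where Lgr5, a receptor of R-spondins, was also highest at 9.25.

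Among 16 of 17 receptors and co-receptors, 8 had a higher and 8 a lower mean, with a median difference of 0.02 and 0 unadjusted calls. Fzd6, a Frizzled receptor, differed by 0.22 (SE 0.14), and Ptk7, a co-receptor of planar polarity signaling, by -0.20 (SE 0.14). Of R-spondins, which strengthen Wnt signals, and their receptors, 6 of 9 were measured, with 2 higher and 4 lower means and a median of -0.03. Rspo4 alone passed an unadjusted p of 0.05 in these pathway lists, 1 of 60 genes or 1.67%, a smaller share than the 5.11% of all rows. It was at 5.47, 5.92, 6.10 and 6.19 in MMTV-Wnt/ILK tumors 1 to 4 and at 6.59, 6.45, 6.22 and 7.15 in MMTV-Wnt1 tumors 1 to 4. The difference was -0.69 (SE 0.24, limma unadjusted p = 0.019, adjusted p = 0.905), and the groups did not overlap. That held for 3 of the 60 genes, or 5.0%, beside 2.90% of all rows.

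Secreted antagonists were split, with 6 higher and 5 lower means among 11 of 12 measured and a median of 0.07. Dkk4, which blocks Lrp5 and Lrp6, differed by -0.96 (SE 0.45), and Sfrp2, which binds Wnt proteins, by 0.71 (SE 0.50). Of 14 of 15 β-catenin target genes measured, 8 had a higher and 6 a lower mean, with a median of 0.04 and 0 unadjusted calls. Axin2, the most widely used readout of β-catenin signaling, averaged 8.35 ± 0.13 in MMTV-Wnt/ILK tumors and 8.33 ± 0.34 in MMTV-Wnt1 tumors, a difference of 0.02 (SE 0.19). Myc differed by 0.21 (SE 0.14) and Ccnd1, which encodes cyclin D1, by -0.24 (SE 0.20).

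**Figure D4:**
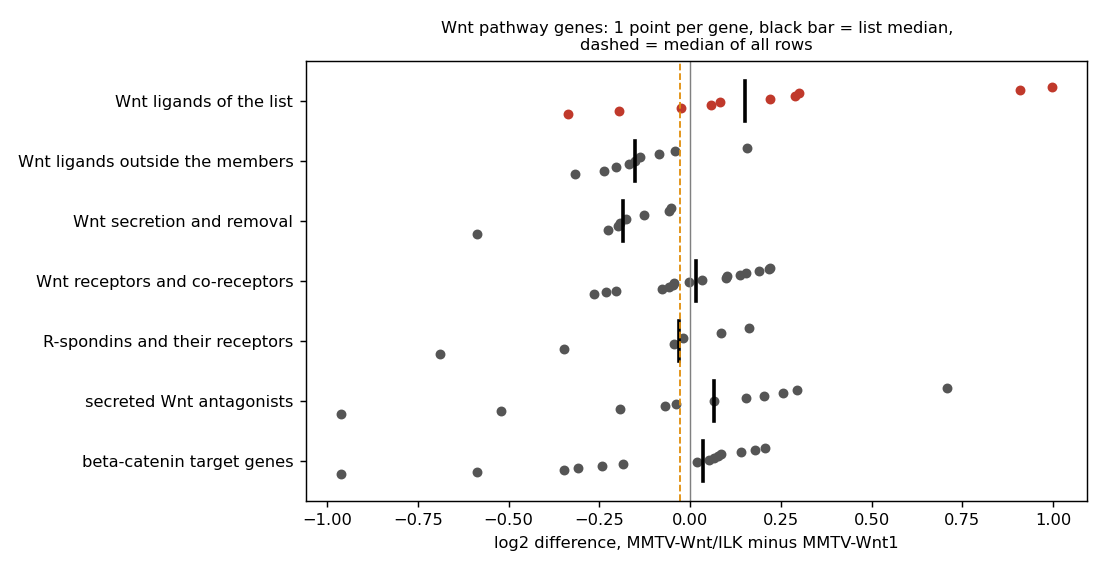
Log2 differences, MMTV-Wnt/ILK minus MMTV-Wnt1 (x axis), of the 10 ligands (red) and of the genes of each pathway list (gray), 1 point per gene, with the list on the y axis. Black bars are list medians, from 0.15 for the 10 ligands to -0.18 for secretion and removal, and the dashed line is the median of all rows (-0.03). Most genes lie within 0.25 of 0.

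Cell type markers were set beside these values, as RNA levels that do not give cell numbers. Of 7 of 10 hormone-sensing luminal markers measured, 6 had higher means in MMTV-Wnt/ILK tumors. Esr1, Foxa1 and Cited1, 3 of the 7, had an unadjusted p under 0.05 (limma adjusted p = 0.905 for each), against 2.91% of all rows in the higher direction. Over all marker lists 4 of 70 genes, or 5.71%, had one, beside 5.11% of all rows in either direction, the other gene being Itga2. The summed linear value of the 7 hormone-sensing markers was 3538, 3500, 1187 and 1708 in MMTV-Wnt/ILK tumors 1 to 4, against 1215 to 1445 in MMTV-Wnt1 tumors. MMTV-Wnt/ILK tumor 3 was thus the lowest of the 8 in these markers, and it was also the lowest MMTV-Wnt/ILK tumor in Wnt5a and Wnt5b. Fibroblast markers had higher means in 9 of 10, with sums of 9935 to 19278 in MMTV-Wnt/ILK tumors and 2900 to 15105 in MMTV-Wnt1 tumors. All 10 fat markers had lower means, with sums of 761 to 1020 in MMTV-Wnt/ILK tumors and 770 to 5325 in MMTV-Wnt1 tumors. The highest was MMTV-Wnt1 tumor 2, which had the lowest Wnt1 value. MMTV-Wnt1 tumor 4, with the next lowest Wnt1 value, had the lowest fat sum of its group.

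The sums of the other marker lists overlapped between the groups too. Over all marker lists the groups did not overlap in 2 of 70 genes, Elovl3 and Ucp1. That is 2.86%, beside 2.90% of all rows. Luminal progenitor and alveolar markers (10 of 11 measured, 7 higher, 1 unadjusted call, Itga2) summed to 12303 to 29599 in MMTV-Wnt/ILK tumors and 10987 to 28212 in MMTV-Wnt1 tumors. In this list Csn2, a milk gene, spanned 5.26 to 13.15 over the 8 tumors, and Kit 11.73 to 12.28. Basal and myoepithelial markers (9 of 10, 5 higher) summed to 6773 to 15258 in MMTV-Wnt/ILK tumors and 9594 to 14322 in MMTV-Wnt1 tumors. Endothelial markers (8 of 8, 3 higher) and leukocyte markers (10 of 11, 6 higher) had no unadjusted call. Skeletal muscle markers (6 of 8, 4 higher) summed to 350 to 4362 in MMTV-Wnt/ILK tumors and 401 to 2156 in MMTV-Wnt1 tumors, with MMTV-Wnt/ILK tumor 3 the highest. The part of these cell types in the ligands' values was not tested.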

How the data were processed

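Each of the 8 tumors was measured on 1 Affymetrix Mouse Exon 1.0 ST array. The deposited table holds gene-level log2 values, which the authors made in ArrayAssist with the RMA algorithm (background correction and summarization of probe sets) and quantile normalization between chips. The array medians of the deposited rows still ran from 6.89 to 7.23, so these rows do not share the same distribution. The log base, not given in the sources used here, was inferred from the range of values. The sources name different versions of ArrayAssist and no genome build. Rows were named through the platform annotation: 14996 rows carry exactly 1 gene, 1019 several and 7317 none. All 10 ligands matched the GRCm38.p6 gene table. Differences were fitted by lmFit and eBayes (limma 3.58.1, R 4.3.3) on all rows with the group as the only term and Benjamini-Hochberg adjustment. This step was tested on simulated data, and the exact permutation test ran over 70 assignments. Slopes used the group and Wnt1 as terms.

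The ligands and lists were chosen with earlier results of these data known. Named genes were the ligands, up to 4 genes per list with the smallest p, Ilk, Actb, and the 3 genes most like Wnt1 and Wnt5a. Axin2, Porcn, Krt5, Kit, Acta2 and Csn2 lay outside this rule and were added after their values were seen. The number of arrays limits the precision. The fits of differences and of slopes were repeated with median-centring, a second quantile normalization, values relative to Actb and array weights. Both were also repeated without the dimmest 25% of rows and without each tumor in turn. A variance trend and an equal-variance test of each row were tried for the differences only. So were rows of 1 gene only and a block for the tumor number. The slopes alone were refitted without the group term. The array median as a covariate, added after seeing the data, was used for the Wnt1 difference and the slopes.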

Additional observations from a re-analysis of the deposited data

Results flagged for a closer look

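Among 66 genes in the 2 groups (132 groups of 4 tumors), 13 values, in 5 of the 8 tumors, lay far from the other 3 tumors of their group by Dixon's criterion, which chance alone meets in about 1 in 20 groups. No value of the 10 ligands was among them. In MMTV-Wnt/ILK tumor 2, Wls was at 9.93 and Dkk3, a secreted protein of the Dickkopf family, at 8.95. In MMTV-Wnt/ILK tumor 3, the muscle genes Acta1 (11.14), Ckm (9.55), Tnnt3 (7.77) and Atp2a1 (9.51) were far above the other 3 tumors of the group. In MMTV-Wnt1 tumor 1, Wnt8a was at 5.80 and Acta1 at 10.41. In MMTV-Wnt1 tumor 2, the brown fat genes Ucp1 (10.80) and Elovl3 (8.26) stood apart, as did Flt1 (7.76), a receptor of endothelial cells, and Ilk (10.87). In MMTV-Wnt1 tumor 4, Notum was at 8.99, against 6.503 to 6.85 in the others.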

How the results depend on the processing

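None of the 10 ligands passed an adjusted p of 0.05 under any of the 17 alternatives. Over all rows the count stayed at 0 except among the fits that leave out 1 tumor, which gave 0 to 13, with 13 without MMTV-Wnt/ILK tumor 2. Of the 2 ligands past an unadjusted p of 0.05, an equal-variance test left 1, values relative to Actb gave 5, and leaving out 1 tumor gave 1 to 2. The share of all rows past that threshold was not counted under any alternative, so these counts are not a result about the ligands. By limma or the equal-variance test, Wnt5a was past an unadjusted p of 0.05 in all 17 alternatives (differences of 0.71 to 1.46). Wnt5b was past it in 11 of 17 (0.68 to 1.55). For these counts too, the share of all rows was not counted. The exact permutation p of Wnt5a was 0.029 relative to Actb and without MMTV-Wnt1 tumor 4. In the other alternatives where it was computed it was 0.057 to 0.14, and that of Wnt5b was 0.057 to 0.17 throughout. The median difference of the 9 ligands other than Wnt1, 0.08, was 0.63 relative to Actb, a scaling that takes the -0.55 of Actb off every row and under which Wnt2 (0.53), Wnt10a (0.21) and Wnt10b (0.36) changed sign. That median was 0.18 with array weights, and without 1 tumor it ran from 0.033 (MMTV-Wnt/ILK tumor 4) to 0.24 (MMTV-Wnt/ILK tumor 3). Leaving out 1 tumor gave -0.15 to 0.12 for Wnt2, -0.17 to 0.26 for Wnt6 and -0.030 to 0.19 for Wnt11, and, without a change of sign, 0.12 to 0.48 for Wnt1, 0.07 to 0.39 for Wnt4, 0.19 to 0.41 for Wnt7b, -0.48 to -0.10 for Wnt10a and -0.27 to -0.09 for Wnt10b. The Wnt1 difference stayed positive in its 18 alternatives (0.12 to 0.84).

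No slope on Wnt1 was past the adjusted threshold in any fit. At the unadjusted threshold 0 of 9 passed as deposited, 3 with median-centring and with repeated quantile normalization (Wnt4, Wnt10a and Wnt10b), 4 relative to Actb (also Wnt11), 2 without MMTV-Wnt1 tumor 3 (Wnt10a and Wnt10b) and 1 without MMTV-Wnt1 tumor 2 (Wnt5a). Several slopes changed sign. The share of rows past the unadjusted threshold, 16.2%, was 25.7% relative to Actb, 8.13% with the array median as a covariate and 10.3% to 27.8% without 1 tumor, lowest without MMTV-Wnt1 tumor 2 and highest without MMTV-Wnt1 tumor 3. The slopes that changed sign were 0.025 for Wnt6 with array weights, 0.15 for Wnt2 and 0.21 for Wnt6 with median-centring, 0.040 for Wnt2, 0.062 for Wnt5b and 0.29 for Wnt6 with repeated quantile normalization, and 0.065 for Wnt5b and 0.027 for Wnt6 without the group term. Relative to Actb they were 0.26 for Wnt2, 0.18 for Wnt5a, 0.19 for Wnt5b, 0.46 for Wnt6 and 0.16 for Wnt7b. With the array median they were 0.10 for Wnt2, -0.14 for Wnt4, 0.19 for Wnt6, -0.61 for Wnt10a and -0.18 for Wnt11. Without 1 tumor they ran from -0.40 to 0.12 for Wnt2, -1.04 to 0.42 for Wnt5b and -0.45 to 0.50 for Wnt6. The cause was not tested.

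The tumor numbers of the labels were not taken as pairs. Deviations of same-numbered tumors correlated at 0.11, 0.13, 0.15 and -0.0041. Out of the 4 tumors of the other group, 5 of 8 tumors correlated best with the one of their own number. What same-numbered tumors may share was not tested. With the number as a replicate block, Wnt5a was at 0.91 (limma unadjusted p = 0.0159) and Wnt5b at 1.00 (limma unadjusted p = 0.0146), 2 ligands passed the unadjusted threshold, 0 rows passed the adjusted one, and no call changed. The mean of a gene's rows gave no values, since each ligand has 1 row. The place of a row on the array is the only guide to its signal over background here.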
